A study of Homo sapiens with 6 samples.

Results

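The genes described here are those of the proteasome that carry a PSM symbol: all rows annotated as protein coding whose symbol starts with PSMA, PSMB, PSMC, PSMD, PSME, PSMF or PSMG followed by a digit. There are 49 such genes among 58735 in the table, and 86 rows match the symbol pattern when every biotype is counted. RNA was sequenced from SW480 cells, a human line from a colorectal cancer labelled as WT in genotype, 3 libraries after a negative control siRNA and 3 after an siRNA against ITGB4 (integrin beta 4). The series calls the 3 libraries of each group biological replicates. The labels name 1 siRNA target, with no siRNA sequence, no count of different siRNAs, no dose and no time between transfection and harvest, so the comparison describes partial loss of ITGB4 RNA at an unstated time in 1 cell line. Values are FPKM as deposited by the authors, the fragments of a gene divided by its length and by a scale for the library.

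The proteasome degrades proteins that carry ubiquitin chains. Its barrel-shaped core is built of outer alpha rings and inner beta rings, and 3 of the beta subunits cut peptide bonds. A cap, made of a base with a ring of ATPases and of a lid, receives the ubiquitylated protein, removes the ubiquitin and feeds the chain into the core. Interferon induces alternative catalytic subunits, which make the immunoproteasome and change the peptides offered on MHC class I molecules. Other members are activators that dock on the ends of the core, or chaperones that assemble core and cap.

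The 6 libraries held 13715266 to 15496274 reads, recovered from the FPKM and the gene lengths. ITGB4, the siRNA target, was at 74.3, 63.8 and 69.8 FPKM in control replicates 1, 2 and 3 and at 41.1, 38.1 and 37.9 FPKM with its siRNA. It fell by 43.7%, with no overlap between the groups (log2 difference -0.81, limma adjusted p = 0.0148). This call was lost with the replicate number as a block (adjusted p 0.0564 by limma), without the filter on low values (0.0618), and when control replicate 3 (0.0996) or ITGB4 siRNA replicate 1 (0.0709), 2 (0.137) or 3 (0.0968) was left out. It was kept in other settings, such as limma-voom on the recovered reads (limma-voom adjusted p 1.3e-05) and protein-coding genes only (limma adjusted p 0.00109). When 1 library was left out, the log2 difference of ITGB4 ran from -0.87 to -0.76. Of 11 markers of colon epithelium, 6 had a mean of at least 1 FPKM (EPCAM, CDH1, KRT8, KRT18, KRT19 and CDX2), while CEACAM5 was listed at 0. Of 8 leukocyte markers only CD74 reached 1 FPKM (2.21 FPKM), and all 6 fibroblast and all 4 endothelial markers were under 1 FPKM. In bulk RNA, fewer cells of a type and less RNA per cell cannot be told apart.

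No tested proteasome gene was called changed when ITGB4 was depleted, where 6 of all 12871 genes tested were called. With so few calls, a count of 0 does not set the members apart from other genes. In most members the 95% interval of the single gene, on log2(FPKM + 1), lay within 1.2-fold in both directions. That limit was chosen after the values were seen. Of the 49 members, 45 had a mean of at least 1 FPKM over the 6 libraries and were tested, and 0 of 45 changed at a limma adjusted p under 0.05, beside 0.0466% of all 12871 genes tested. At an unadjusted limma p under 0.05 there were also 0 members, beside 5.83% of all genes tested, and limma-voom on the recovered reads likewise called 0 members, at either threshold. The log2 difference, with 1 added to each FPKM, lay above 0 in 21 members and below 0 in 24. Its median was -0.0018 over the members and -0.0034 over all genes tested. The members ran from -0.087 in PSMB2 to 0.24 in PSMB10. The share of all reads that fell on members was 0.654%, 0.644% and 0.638% in control replicates 1, 2 and 3 and 0.648%, 0.652% and 0.646% with ITGB4 siRNA, so the groups overlapped.

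**Figure D1:**
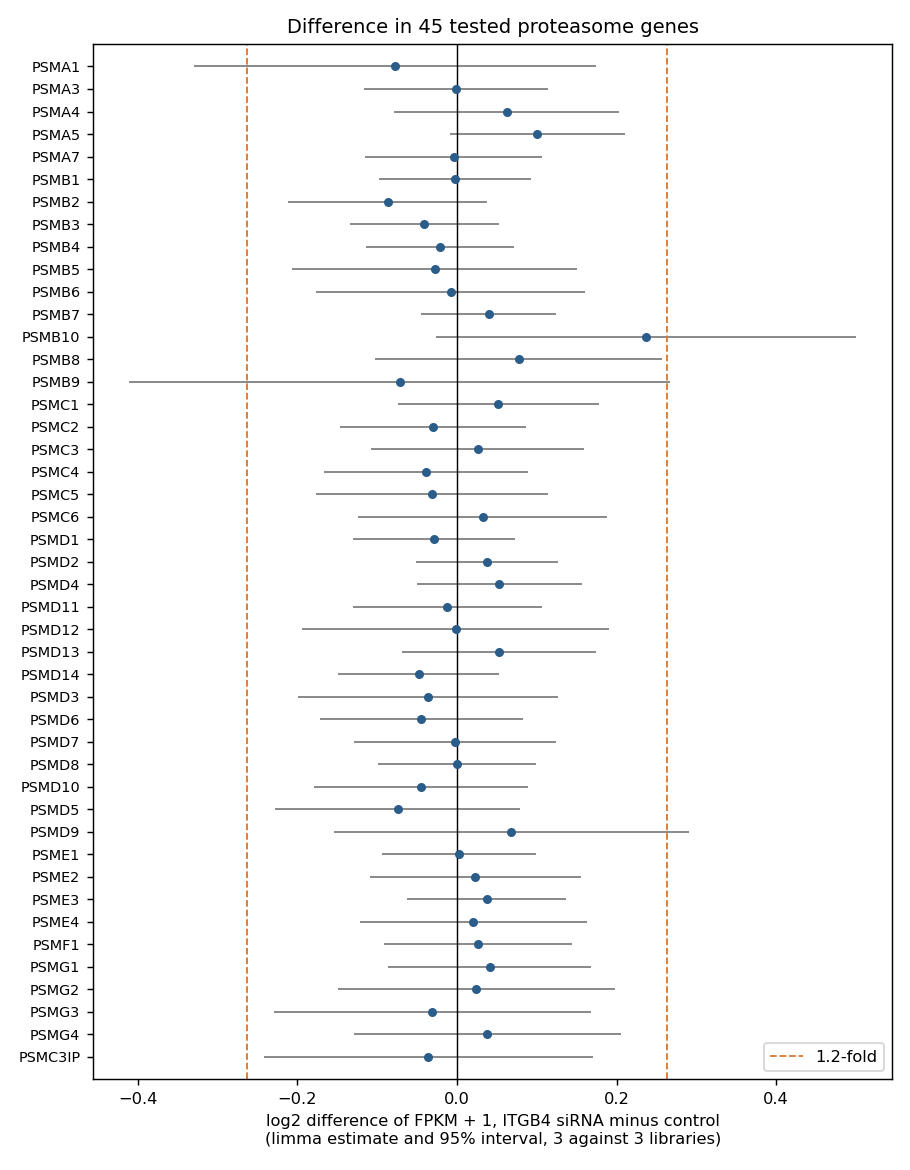
Log2 difference in FPKM + 1, ITGB4 siRNA minus control, of the 45 tested proteasome genes (points, limma estimate from 3 against 3 libraries) with 95% intervals (grey bars); dashed lines mark a 1.2-fold difference in either direction. All 45 intervals include 0, and those of PSMA1, PSMB10, PSMB9 and PSMD9 cross a dashed line.

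The intervals bound the size of difference that the libraries allow for each gene, taken singly. As the plot of differences shows, the 95% interval lay within 1.2-fold in both directions in 41 of 45 members (91.1%), against 51.3% of all genes tested. With the mean level restricted to at least 10 FPKM, these shares were 39 of 39 members and 75.9% of 4667 genes. At 1.1-fold 13 of 45 members lay inside (5.22% of all genes tested) and at 1.5-fold 45 of 45 (91.0%). The 1.2-fold limit was chosen after the values were seen. The 4 members outside it are PSMA1, PSMB9, PSMB10 and PSMD9, all under 10 FPKM, where adding 1 to the FPKM also makes a difference look smaller.

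In 4 members (8.89%) the 3 libraries of a group all lay on the same side of those of the other group, beside 11.1% of all genes tested. In PSMA5, PSMB7 and PSMD4 the ITGB4 siRNA libraries were the higher ones, as in 5.75% of all genes tested, and in PSMD14 they were the lower ones, as in 5.36%. The exact two-sided permutation test gave p = 0.1 for each of these 4 genes, the smallest value that 3 against 3 libraries can give.

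**Figure D2:**
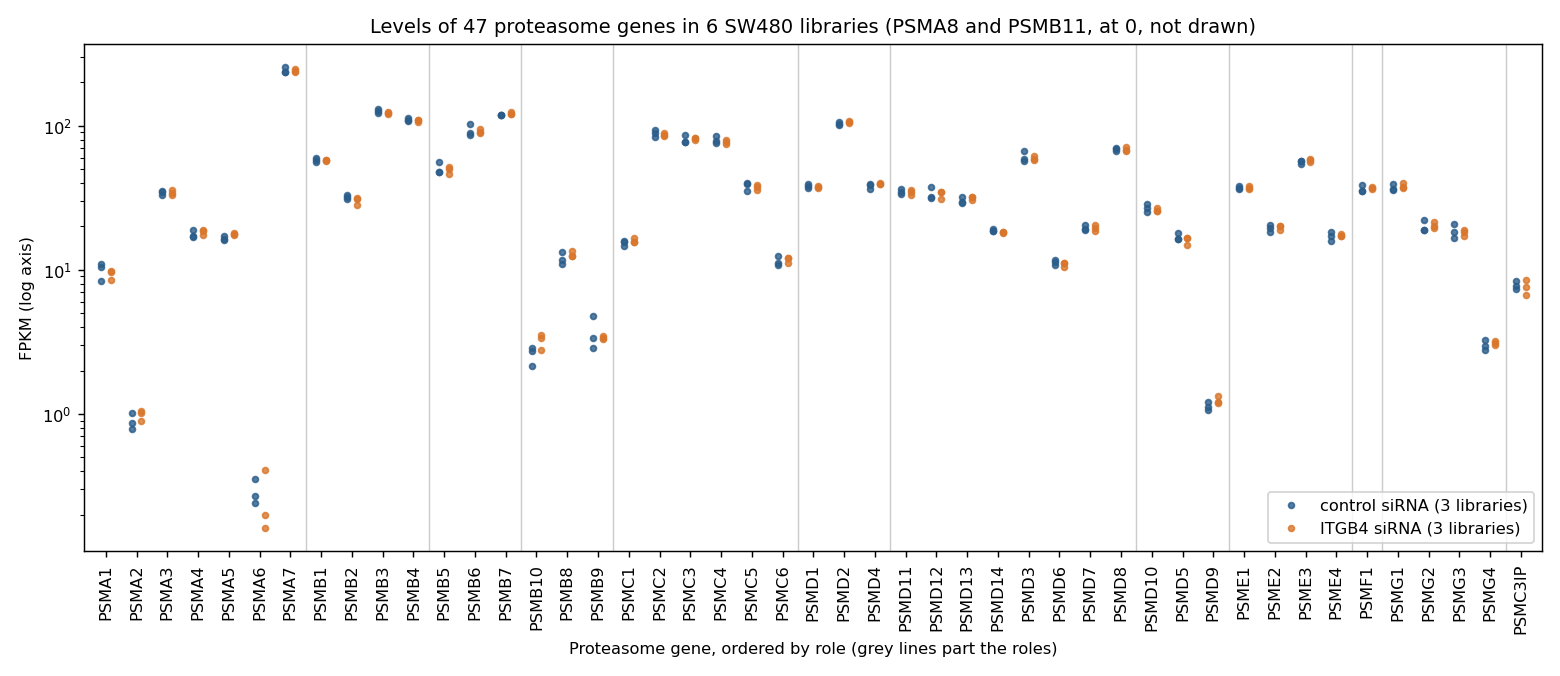
FPKM (log axis) of 47 proteasome genes in each control siRNA library (blue, 3 points) and each ITGB4 siRNA library (orange, 3 points), ordered by role with grey lines between roles. The points of the groups lie close together within each gene, while the genes range from 0.272 FPKM (PSMA6) to 241.9 FPKM (PSMA7).

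The alpha rings form the outer faces of the core and gate its entrance. PSMA7 was the most abundant member, at 255.1, 235.7 and 236.2 FPKM in the control libraries and 249.2, 240.4 and 235.1 with ITGB4 siRNA. The 2 groups overlapped almost fully, with a log2 difference of -0.004. PSMA5 was at 15.99, 16.3 and 17.2 FPKM in the controls and 17.6, 17.7 and 17.9 with ITGB4 siRNA. Each ITGB4 siRNA library was higher than each control library, by 7.63% in the mean, and this was the smallest p among the members (log2 difference 0.10, 95% interval -0.01 to 0.21, limma adjusted p = 0.899). PSMA4 was at 17.1, 18.8 and 16.8 FPKM and at 17.5, 18.9 and 18.7 FPKM, with overlapping groups. PSMA8, a testis form of the alpha ring, was listed at 0 in all 6 libraries.

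The structural beta subunits hold the inner rings together. All 4 had log2 differences below 0, from -0.087 to -0.002, and none passed the test. PSMB3, the highest of them, was at 130.1, 126.0 and 122.4 FPKM in the controls and 120.8, 124.2 and 122.7 FPKM with ITGB4 siRNA. PSMB2, the lowest, was at 31.2, 32.8 and 32.2 FPKM against 28.3, 31.3 and 30.8 FPKM. In PSMB2, ITGB4 siRNA replicate 1 was the lowest library and replicate 2 alone reached into the control range (log2 difference -0.087, 95% interval -0.21 to 0.04).

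Of the catalytic subunits, PSMB5 carries the chymotrypsin-like site, PSMB6 the caspase-like site and PSMB7 the trypsin-like site. PSMB5 was at 55.8, 47.6 and 47.6 FPKM in the controls and 49.7, 46.5 and 51.6 FPKM with ITGB4 siRNA. PSMB6 was at 102.6, 88.4 and 86.4 FPKM against 95.3, 89.4 and 90.5 FPKM. In both genes control replicate 1 was the highest of the 6 libraries, and without it the log2 difference turned from -0.028 to 0.047 in PSMB5 and from -0.008 to 0.069 in PSMB6. PSMB7 was at 119.3, 118.0 and 118.4 FPKM in the controls and 120.0, 124.7 and 121.0 FPKM with ITGB4 siRNA. Its groups were apart but the means differed by 2.82% (log2 difference 0.04, limma adjusted p = 0.998).

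The interferon-inducible partners of these 3 subunits were each measured at a lower level than the subunit they replace. PSMB8, which takes the place of PSMB5, was at 13.4, 11.1 and 11.8 FPKM in the controls and 13.4, 12.4 and 12.4 FPKM with ITGB4 siRNA. PSMB9, which takes the place of PSMB6, was at 4.77, 3.34 and 2.86 FPKM against 3.31, 3.35 and 3.45 FPKM. The 3 ITGB4 siRNA libraries of PSMB9 lay within the range of the controls, where replicate 1 was high. PSMB10, which takes the place of PSMB7, was at 2.74, 2.15 and 2.87 FPKM against 2.77, 3.53 and 3.36 FPKM. It had the largest log2 difference of the tested members, 0.24 (95% interval -0.03 to 0.50, limma adjusted p = 0.920), with ITGB4 siRNA replicate 1 among the controls and the other 2 above them. Without control replicate 2, its lowest library, the log2 difference was 0.15. PSMB10 rested on 59 to 100 reads per library, and shares exon bases with another gene, as given further on. PSMB11, the thymus form, was listed at 0 in all 6 libraries.

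As a share of its constitutive partner in FPKM, PSMB8 stood at 24.0% ± 0.750 of PSMB5 (SD, n = 3) in the controls and 25.9% ± 1.63 (SD, n = 3) with ITGB4 siRNA. PSMB9 stood at 3.91% ± 0.680 of PSMB6 in the controls and 3.68% ± 0.177 with ITGB4 siRNA. PSMB10 stood at 2.18% ± 0.316 of PSMB7 and 2.64% ± 0.290 (SD, n = 3 for each mean). For each of the 3 pairs the values of the groups overlapped, and these shares were not tested. By FPKM, PSMB8 was the highest of the immunoproteasome subunits in SW480 cells in both groups, though the level of PSMB10 is uncertain, as given further on.

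The promoters of PSMB8, PSMB10 and the interferon-inducible activators PSME1 and PSME2 are shown because these genes share a short pattern that the choice of members did not use. RefSeq (GRCh38.p14) gave a window of 250 bases before to 50 bases after the start for 43 of the 49 members. The core of the interferon response element, GAAA, any 2 bases and GAAA again on either strand, was found in 7 of these 43 genes (16.3%), beside 4.38% of 27305 genes with such a window. The 7 were PSMA4, PSMB4, PSMB8, PSMB10, PSME1, PSME2 and PSMG4. Below, 30 bases are written 5′ to 3′ on the strand of the gene, with the match in capitals; in PSMB8 and PSME1 it lies on the opposite strand. The first base of the match is at position -4 from the annotated start in PSMB8, -21 in PSMB10, 6 in PSME1 and -28 in PSME2.
PSMB8 (chr6:32844032-32844061, minus strand): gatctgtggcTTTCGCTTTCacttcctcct
PSMB10 (chr16:67936852-67936881, minus strand): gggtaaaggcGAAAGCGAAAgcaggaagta
PSME1 (chr14:24136189-24136218, plus strand): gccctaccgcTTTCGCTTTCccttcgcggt
PSME2 (chr14:24146619-24146648, minus strand): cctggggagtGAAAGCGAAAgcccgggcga
All 4 matches read GAAAGCGAAA on 1 of the strands, and so does the match in PSMG4, a core assembly chaperone, at position -33. PSMB9, the third interferon-inducible catalytic subunit, had no match in its window. A match describes these letters only, and binding of a factor was not measured here.

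Activators bind the ends of the core in place of the cap. PSME1 and PSME2, which form a joint ring, were at 37.95, 36.5 and 36.9 FPKM and at 19.6, 18.3 and 20.4 FPKM in the controls. With ITGB4 siRNA they were at 38.1, 36.6 and 36.9 FPKM and at 20.3, 20.0 and 18.95 FPKM. PSME3, the nuclear activator, was at 54.4, 57.2 and 56.9 FPKM against 56.0, 58.7 and 58.2 FPKM. PSME4, a large single-chain activator, was at 15.9, 18.4 and 17.1 FPKM against 17.3, 17.7 and 17.1 FPKM. All 4 had log2 differences above 0, but none exceeded 0.04, none passed the test, and the groups overlapped in each. PSMF1, named for inhibiting the core in vitro, was at 38.6, 35.3 and 35.4 FPKM against 37.2, 36.4 and 37.7 FPKM, again with overlap.

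In the base of the cap, 6 ATPases unfold the substrate, and 3 had log2 differences above 0 and 3 below. PSMC2, the highest of them, was at 84.0, 92.8 and 89.0 FPKM in the controls and 84.5, 89.2 and 86.3 FPKM with ITGB4 siRNA. PSMC6, the lowest, was at 10.8, 12.5 and 11.2 FPKM against 12.1, 11.2 and 12.1 FPKM. The groups overlapped in all 6 ATPases. Among the other base subunits, PSMD2, a scaffold that binds ubiquitin-like domains, was at 106.2, 101.5 and 103.2 FPKM against 106.8, 107.7 and 104.7 FPKM. PSMD1, the second scaffold, was at 37.1, 39.6 and 38.2 FPKM against 37.0, 38.2 and 37.3 FPKM. PSMD4, a receptor for ubiquitin chains, was at 39.21, 36.4 and 38.5 FPKM in the controls and 39.23, 39.8 and 39.5 FPKM with ITGB4 siRNA. Its groups did not overlap, but replicates 1 of the 2 groups were nearly level, and it did not pass (log2 difference 0.05, limma adjusted p = 0.998).

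The lid removes ubiquitin before degradation, through PSMD14, its metalloprotease. PSMD14 was at 18.6, 19.3 and 18.5 FPKM in the controls and 18.2, 17.9 and 18.3 FPKM with ITGB4 siRNA. Each ITGB4 siRNA library was lower than each control, by 3.46% in the mean, without passing the test (log2 difference -0.05, limma adjusted p = 0.998). PSMD8, the highest lid subunit, was at 69.7, 67.2 and 68.7 FPKM against 70.9, 66.5 and 68.3 FPKM, a difference of 0.00 on the log2 scale. PSMD6, the lowest, was at 11.4, 11.6 and 10.8 FPKM against 10.4, 11.2 and 11.1 FPKM. In all, 2 lid subunits lay above 0 and 6 below.

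Assembly chaperones build the complex and are not part of the finished particle. For the cap, PSMD10 (gankyrin) was at 25.3, 28.6 and 26.9 FPKM in the controls and 26.95, 25.7 and 25.5 FPKM with ITGB4 siRNA. PSMD5 was at 16.5, 18.1 and 16.3 FPKM against 14.9, 16.6 and 16.5 FPKM. PSMD9 was the lowest tested member, at 1.12, 1.07 and 1.22 FPKM against 1.201, 1.33 and 1.19 FPKM. All 3 had overlapping groups. For the core, PSMG1 was at 35.7, 39.1 and 36.3 FPKM against 37.7, 39.95 and 36.8 FPKM, and PSMG4, the lowest of these 4, was at 3.24, 2.80 and 2.94 FPKM against 3.10, 3.198 and 2.99 FPKM. Of the core chaperones, 3 had log2 differences above 0 and 1 below, from -0.03 to 0.04. PSMC3IP matches the symbol pattern but encodes a meiotic recombination factor, and it was at 8.30, 7.76 and 7.32 FPKM against 8.45, 7.66 and 6.69 FPKM.

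Subunits of the same particle differed widely in measured RNA level. Across the 31 subunits of core and cap with a PSM symbol (without the immunoproteasome and tissue-specific forms), the mean FPKM ranged from 0.272 in PSMA6 to 241.9 in PSMA7, an 888-fold range. The low end of this range is uncertain, because PSMA6 shares most of its exon bases with another gene. Without the subunits that share such bases on their strand the range was 21.8-fold, as given further on. PSMA6 and PSMA2, both alpha ring subunits, were under the filter of 1 FPKM, at 0.272 and 0.937 FPKM. PSMA6 had 34, 26 and 24 reads in the controls and 37, 16 and 20 with ITGB4 siRNA, and PSMA2 had 62, 68 and 83 reads against 66, 85 and 85. PSMA6, PSMA2 and PSMA1 are described here after their values were seen.

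The 4 lowest members above 0 (PSMA6, PSMA2, PSMD9 and PSMB10) were all genes with exons that are also annotated as exons of another gene on the same strand. In GENCODE 29, whose exon lengths equal the deposited gene lengths in 58735 of 58735 genes, 80.95% of the bases of the main PSMA6 transcript also lie in an exon of AL121594.1. This gene is annotated as protein coding on GRCh38 chromosome 14, 35122549 to 35317474, plus strand, and its span contains most of PSMA6 (35278633 to 35317493). The shares were 53.2% in PSMA1 (with AC018523.2), 52.5% in PSMA2 (with AC010132.3), 45.3% in PSMB10 (with AC040162.1) and 43.8% in PSMD9 (with AC069503.2). These 5 members stood at 0.272, 9.61, 0.937, 2.90 and 1.19 FPKM, and no other member shared over 1% of its main transcript on its own strand. The 5 neighbours share 94.4% to 100% of their own main transcripts, and the reads assigned to them in the 6 libraries together ranged from 0 (AC018523.2) to 124 (AC040162.1).

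**Figure D3:**
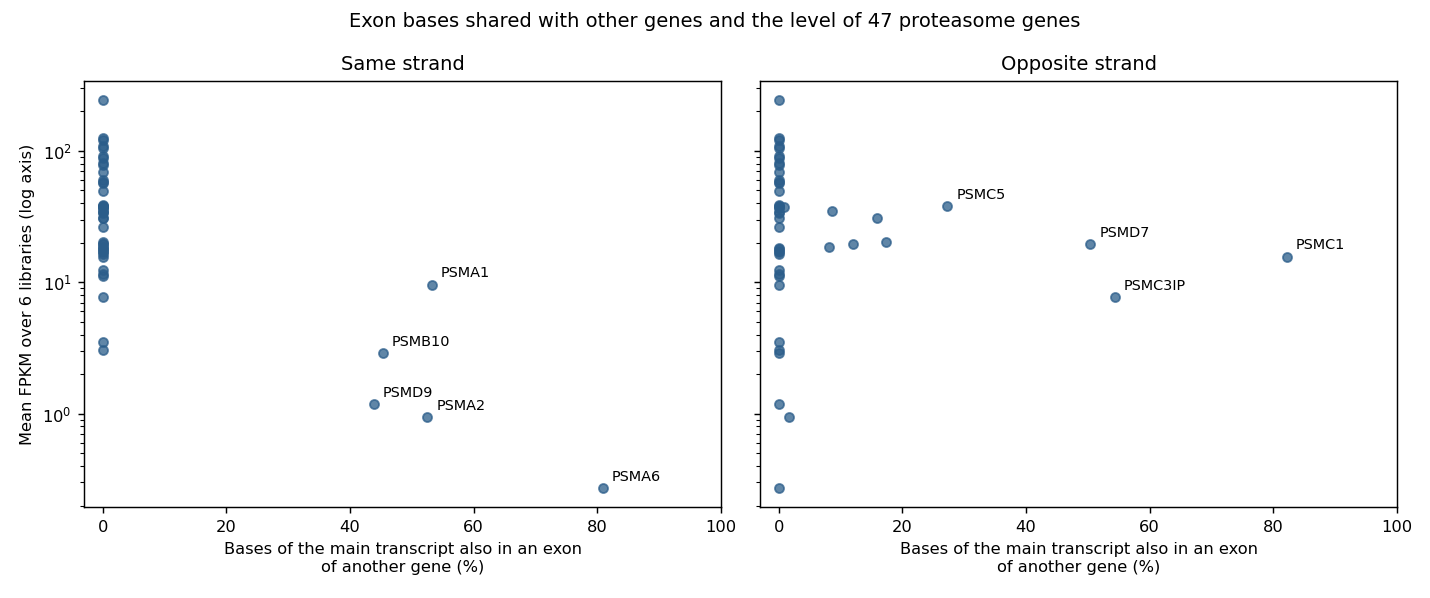
Mean FPKM over 6 libraries (log axis) of 47 proteasome genes against the percent of bases of the main transcript that also lie in an exon of another gene, on the same strand (left) and on the opposite strand (right). The 5 labelled genes on the left lie between 0.272 and 9.61 FPKM, while the 3 genes over 50% on the right (PSMC1, PSMC3IP and PSMD7) lie between 7.70 and 19.6 FPKM.

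Over all protein-coding genes, as a description, low levels went with sharing of over 50% but not with less. Of 17256 genes with no base shared on their strand, 55.0% had a mean of at least 1 FPKM (median 1.82 FPKM). Of 1545 genes with some bases but no more than 50% shared, the range that holds PSMB10 and PSMD9, 61.7% did (median 2.27 FPKM). Of 505 genes with over 50% and up to 90% of the main transcript shared, 25.5% did (median 0.142 FPKM). Of 645 genes with over 90% shared, 2.48% did, and their median was 0. For sharing on the opposite strand alone, 55.4% of the 186 genes with over 50% and up to 90% shared reached 1 FPKM, and 3.70% of the 27 genes with more. PSMC1, an ATPase of the base with 82.1% of its main transcript opposite an exon of NRDE2, was at 15.6 FPKM. Counting programs differ in whether a read in a stretch shared by genes is given to each of them or to none, and the counting rule is not given in the sources used here. Its part in the levels of PSMA6, PSMA2, PSMA1, PSMB10 and PSMD9 was not tested, so their levels are uncertain.

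Without subunits that share any exon base of the main transcript on their strand, 28 of the 31 remained. Their mean level ran from 11.1 FPKM (PSMD6) to 241.9 FPKM (PSMA7), a 21.8-fold range with a median of 38.3 FPKM. The exon sharing was examined because PSMA6 and PSMA2 were low. It was first computed over all exons of a gene, where no member shared over 50% of its bases, and then over the main transcript.

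Levels between members also depended on the gene length used. The authors' length is the union of all annotated exons, which was 1 to 12.4 times the length of the main transcript (median 1.77 over the 49 members). PSMG4 showed the largest ratio, with 3.05 FPKM as deposited. It was at 38.0 on the same scale when all its reads were divided by the length of the main transcript instead. Reads in exons outside the main transcript stay in this second value, so it can overstate the level of that transcript. PSME3 went from 56.9 to 294.7 on the same scales, second to PSMA7 at 241.9 and 426.4. The order of the 47 members above 0 was similar on both scales (Spearman rho 0.912 across genes, which share libraries and read counts). PSMB8 was 24.9% of PSMB5 over all libraries by FPKM and 48.7% by main transcript length, and PSMB9 was 3.82% and 8.82% of PSMB6. PSMB10 was 2.41% and 2.01% of PSMB7. On either scale each immunoproteasome subunit was below its partner, though the level of PSMB10, which shares exon bases with another gene, is uncertain on both.

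**Figure D4:**
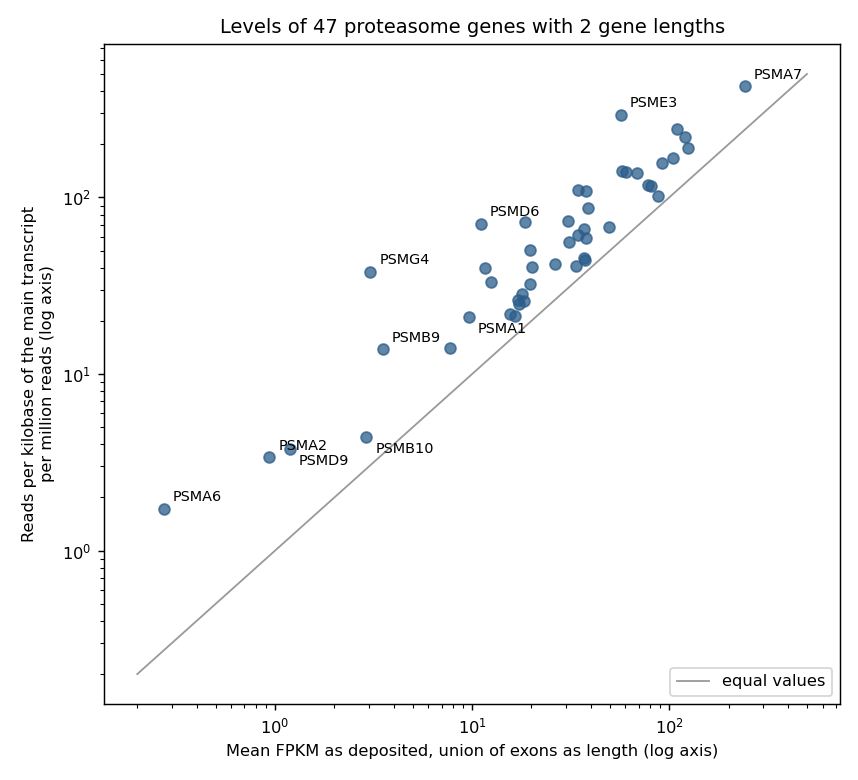
Level of 47 proteasome genes per kilobase of the main transcript (y, log axis) against the deposited FPKM, which uses the union of exons (x, log axis); the line marks equal values. No gene lies below the line, which follows from the lengths, as both values use all reads of a gene and the union is never the shorter length. PSMG4 lies farthest above it (38.0 against 3.05).

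PSMC1 also has a processed pseudogene, PSMC1P1, with 453 reads in the 6 libraries against 8632 for PSMC1. Its FPKM was 2.76, 3.17 and 3.63 in the controls and 5.47, 3.77 and 4.28 with ITGB4 siRNA. Reads of such a copy and its parent can be exchanged in counting, so the values of PSMC1P1 are uncertain. PSMC1 itself had overlapping groups. PSMA6 has 4 pseudogenes by symbol, with 67 reads in the 6 libraries (65 on PSMA6P1) against 157 for PSMA6. The part of such copies in the low level of PSMA6 was not tested.

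Control replicates 1 and 2 deviated in opposite directions with the GC content of the transcripts. In control replicate 1, the deviation of a member from its own mean correlated with its GC content at r = 0.63 over 45 members, and in control replicate 2 at r = -0.73. In control replicate 3 and ITGB4 siRNA replicates 1, 2 and 3 it was -0.13, 0.36, -0.07 and -0.08. Over 12866 tested genes with a known GC content the values were 0.45 and -0.42 in control replicates 1 and 2 and -0.13 to 0.24 in the other 4 libraries. These are correlations across genes that share a library, given as a description with no test. The 10 members highest in control replicate 1 against their mean had a median GC of 55.1%, and the 10 lowest 41.8%. The former include PSMB5, PSMB6, PSMB8 and PSMB9, and the latter include PSMA1, PSMA4 and PSMA5.

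**Figure D5:**
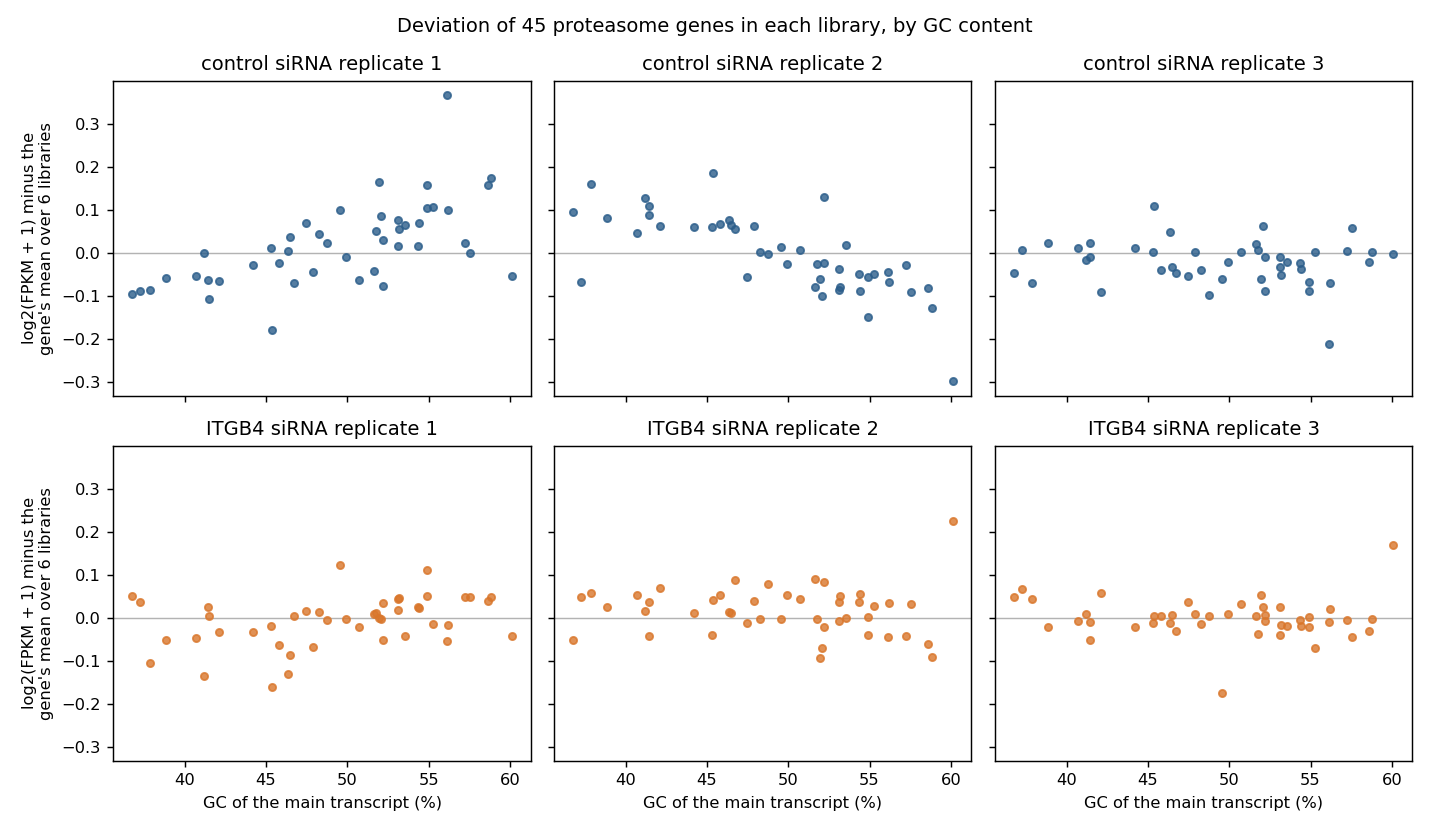
Deviation of log2(FPKM + 1) from the gene's mean over 6 libraries (y) against the GC percent of the main transcript (x) for 45 proteasome genes, 1 panel per library (control siRNA in blue, ITGB4 siRNA in orange). The points rise with GC in control replicate 1 (r = 0.63) and fall in control replicate 2 (r = -0.73).

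Control replicate 1 was the highest or the lowest of the 6 libraries in 53.3% of the 45 members and control replicate 2 in 62.2%, beside 49.2% and 46.98% of all genes tested. The median log2 difference of the members was 0.016 without control replicate 1 and -0.002 without control replicate 2. Without control replicate 1, 2 of 45 members (PSMA1 and PSMB8) had an unadjusted limma p under 0.05, beside 1307 of 12871 genes tested. The smallest limma adjusted p among members was then 0.486. The GC relation was looked for after the values were seen, and its part in single genes was not tested.

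The wider ubiquitin and antigen processing pathway was described by 4 lists with 51 genes, all of which passed the filter. Limma called 0 of 51 changed, beside 0.0466% of all genes tested. An unadjusted limma p under 0.05 was reached by 3 of the 51, UBE3C and NFE2L1 among them, beside 5.83% of all genes tested. Limma-voom called 0, with 3 at an unadjusted p under 0.05, beside 749 of all 12871 genes. Over the 51 genes, log2 differences were positive in 21 and negative in 30, with -0.009 as the median. In 3 of the 51 (5.88%) the groups did not overlap, beside 11.1% of all genes tested. Of 12 cofactors without a PSM symbol, 4 lay above 0 and 8 below. UBE3C, a ubiquitin ligase that acts at the proteasome, was at 26.6, 27.3 and 25.7 FPKM in the controls and 23.8, 24.2 and 24.3 FPKM with ITGB4 siRNA. The ITGB4 siRNA libraries were all lower, and the difference did not pass over all genes (log2 -0.13, limma adjusted p = 0.741). ZFAND5, a zinc finger protein that stimulates the particle, was at 28.96, 32.1 and 31.2 FPKM against 28.1, 28.8 and 28.7 FPKM, also lower in all 3 libraries (limma adjusted p = 0.928). POMP, the maturation factor of the core, was at 143.7, 154.5 and 145.3 FPKM against 143.1, 147.3 and 157.1 FPKM, with overlap.

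NFE2L1 is the transcription factor that raises proteasome genes when proteasome activity falls, through antioxidant response elements in their promoters. It was at 33.5, 29.7 and 31.4 FPKM in the controls and 37.2, 34.2 and 35.7 FPKM with ITGB4 siRNA. All 3 ITGB4 siRNA libraries were higher than all 3 controls, yet the difference did not pass over all genes (log2 0.17, 95% interval 0.04 to 0.31, limma adjusted p = 0.761). Of the 10 genes of its route, 6 lay above 0 and 4 below (median log2 difference 0.01). NGLY1, which edits NFE2L1 by removing its sugars, was at 3.99, 4.72 and 4.01 FPKM against 3.25, 3.80 and 4.03 FPKM, with overlap.

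The core of the antioxidant response element, TGACNNNGC on either strand, was found in the windows of 15 of 43 members (34.9%), beside 16.1% of 27305 genes. CCAAT, the third pattern searched, was found in 21 of 43 (48.8%), beside 39.7%. No pattern contains another. Examples of the antioxidant core upstream of the start are shown for 5 members of the core and cap, with the match in capitals, 5′ to 3′ on the strand of the gene (RefSeq, GRCh38.p14); in PSMC5 the match is on the opposite strand.
PSMA4 (chr15:78540650-78540679, plus strand): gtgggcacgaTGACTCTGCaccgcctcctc
PSMB3 (chr17:38752627-38752656, plus strand): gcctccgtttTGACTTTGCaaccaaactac
PSMC5 (chr17:63827654-63827683, plus strand): gaccggatctGCTGTGTCAgcgccgccctc
PSMD3 (chr17:39980760-39980789, plus strand): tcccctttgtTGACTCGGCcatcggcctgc
PSMD12 (chr17:67366723-67366752, minus strand): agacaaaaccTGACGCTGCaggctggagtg
Their log2 differences were 0.06 in PSMA4, -0.04 in PSMB3, -0.03 in PSMC5, -0.04 in PSMD3 and -0.002 in PSMD12, and none of the 5 passed the test. These 5 are examples and do not stand for all 15, which ran from -0.074 in PSMD5 to 0.068 in PSMD9. A match describes letters only, and binding of NFE2L1 was not measured here.

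Of 14 ubiquitin genes and shuttle factors, 4 lay above 0 and 10 below. UBB, a polyubiquitin gene, was at 209.5, 167.7 and 198.0 FPKM against 186.1, 174.6 and 178.9 FPKM, with overlap. In MHC class I antigen processing, which uses peptides made by the proteasome, 7 of 15 genes lay above 0 and 8 below. TAP1, a subunit of the peptide transporter, was at 12.3, 9.87 and 10.9 FPKM against 10.3, 10.1 and 10.1 FPKM, with all ITGB4 siRNA libraries inside the control range. CALR, a chaperone of class I assembly, was at 163.1, 152.4 and 152.2 FPKM against 167.8, 160.9 and 166.0 FPKM, and its groups overlapped.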

How the data were processed

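The authors deposited 1 table of FPKM per gene and library for 58735 genes, with gene length, on GRCh38 per the submitters' processing notes, which name DESeq2 and edgeR without a role. The aligner, counting tool and strand setting are not given in the sources used here. Per the labels, RNA was captured on poly-T beads. Multiplying by gene length and dividing by the value of 1 read gave whole reads (100% of values within 0.01). The deposited FPKM had median-of-ratios factors of 1.003 in all 6 libraries, with a spread of 1.1e-09. They were thus already on a median-of-ratios scale, and that rescaling could not alter the result.

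From these values, log2(FPKM + 1) of the 12871 genes with a mean of at least 1 FPKM was fitted with limma-trend (limma 3.58.1, R 4.3.3), two-sided, with Benjamini-Hochberg adjustment over all genes tested and a threshold of 0.05. Intervals are 95%. Groups came from the sample titles. The main transcript is the best APPRIS principal transcript in GENCODE 29, the longest if several. The fit was tested on simulated data as a check of the code, with residual spreads shuffled among genes. That run does not measure the power for differences as small as 1.2-fold. Tables and figures used Python 3.11.15, pandas 2.3.3, numpy 2.4.6, scipy 1.17.1 and matplotlib 3.10.9.

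Values in every library are given for the catalytic pairs, activators, PSMF1, the highest and lowest member of each role, the 10 members with the smallest unadjusted p, NFE2L1, POMP, TAP1 and the 2 genes of each pathway list with the smallest p, of which 1 gene is not reported here. The members and lists were chosen with earlier results of these data known. Alternatives were another pseudocount, other filters and scalings, limma-voom on recovered reads, a replicate block, protein-coding genes only, and leaving out each library. The length of the main transcript was added after seeing the data.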

Additional observations from a re-analysis of the deposited data

How the results depend on the processing

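The count of 0 changed members held in every alternative run, and their median log2 difference lay between -0.014 and 0.016 when leaving out 1 library. In some runs no gene of the whole table was called, so a count of 0 members was fixed in advance. These were the runs without the filter, with the replicate block, and without any 1 of the ITGB4 siRNA libraries. The number of all genes changed was 6, with 0 without the filter on low values, 26 with limma-voom, 17 among protein-coding genes only, and 0 to 7 when leaving out 1 library; the cause was not tested. With the replicate block it was 0, and the smallest limma adjusted p among members was 0.606; ITGB4 had a limma adjusted p of 0.0564. The replicate numbers are not shown to pair the libraries: deviations of same-numbered libraries correlated at 0.173, 0.102 and -0.010. Those of differently numbered libraries ran from -0.174 to 0.086, so these values do not settle whether the libraries are paired. An unadjusted limma p under 0.05 was reached by PSMA5 without the filter, beside 1356 of 31956 genes tested. PSMB10 reached it with protein-coding genes only (633 of 10592 genes did) and without ITGB4 siRNA replicate 1 (604 of 12871). PSMA1 and PSMB8 reached it without control replicate 1, beside 1307 of 12871.

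PSMA7 turned sign as TPM (0.000814) and with limma-voom (0.00187). When leaving out 1 library, the log2 difference crossed 0 in PSMB5 (-0.066 to 0.047), PSMB6 (-0.054 to 0.069), PSMB9 (-0.196 to 0.094), PSME1 (-0.014 to 0.018), PSME2 (-0.017 to 0.057), PSME4 (-0.029 to 0.070), PSMA7 (-0.027 to 0.033), PSMC6 (-0.00796 to 0.088), PSMC2 (-0.068 to 0.00297), PSMD8 (-0.024 to 0.022), PSMC3IP (-0.107 to 0.042) and POMP (-0.025 to 0.044). ITGB4 ran from -0.87 to -0.76 (limma adjusted p 0.0309 to 0.137) and had an adjusted p of 0.0618 without the filter. Of all comparisons of the 40 named and tested genes with their alternatives, 526 kept direction and side of the threshold, 23 turned sign and 6 lost the call, all 6 of them ITGB4. PSMA6 had 16 to 37 reads per library, so its values are imprecise. The cause of this low count was not tested.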
